A study of Sus scrofa with 12 samples.

Results

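Of the 47845 probe sets on a pig microarray, 93 carry the names of microRNAs known from the gut and from immune cells. They were taken by name alone: a prefix for pig (ssc), cow (bta), human (hsa) or mouse (mmu), followed by let-7 or by one of 19 microRNA numbers, such as those of miR-192, miR-200, miR-145 and miR-150. Of these 93 entries, 8 are named after pig, 39 after cow, 21 after human and 25 after mouse microRNAs, and together they hold 50 distinct names in 20 families. The array carries 1858 microRNA entries in all, and the other 1765 serve here for comparison. Each array was hybridized with total RNA from the mucosa of the ileum of 1 pig, and the 12 pigs were 140 days old. The pigs differed in feed efficiency, the growth an animal gains from its feed, with 6 in the high and 6 in the low group, and each group held 3 males and 3 females. The labels used here name no strain or diet, and they give every animal an identifier of its own, so that replicates were different pigs.

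MicroRNAs are short RNAs that bind messenger RNAs with matching sites and lower their translation or their stability. They are cut from longer primary transcripts, first by DROSHA and DGCR8 in the nucleus to a hairpin and then by DICER1 in the cytoplasm, and are loaded onto Argonaute proteins. In mammals the miR-192, miR-194 and miR-215 families are known from gut epithelium, the miR-200 family from epithelial cells in general, miR-143 and miR-145 from smooth muscle and other stromal cells, and miR-142, miR-150, miR-155 and miR-223 from blood and immune cells. The probe sets are named after hairpins, and the labelling kit makes DNA along whole transcripts from total RNA, so the values were read here as signals of each hairpin and its primary transcript and not as amounts of the mature microRNA.

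All values are the deposited log2 values, on which a difference of 1 is a 2-fold difference in signal. The array carries 69 background controls, 3 for each number of G or C bases from 3 to 25 in probes of 25 bases, and these set how a low signal can be read. Their mean over the 12 arrays was 1.22 with 4 G or C bases, 1.92 with 13, 4.29 with 16 and 7.72 with 23. A signal of 4 can therefore be background for one probe set and above background for another. The G and C content of the microRNA probes was not used here, so an entry was called above background only where it exceeded the 95th percentile of the 69 controls on the same array, a limit of 7.49 to 7.84. Below that limit a level is a bound, and the size of a difference is not measured exactly. One array was unlike the others: that of pig 1 of the high group (high pig 1) had a median correlation of 0.899 with the other 11 arrays, against 0.930 to 0.962 for those. No pair of arrays shared more than 0.326% of its values, so none was deposited in duplicate. Marker genes of ileal mucosa were high: the ileal bile acid binding protein FABP6 had a mean of 12.65, the brush border protein VIL1 10.79, the goblet cell mucin MUC2 9.14 and the T cell receptor component CD3E 9.18. Smooth muscle RNA was present too, with ACTG2 at 11.75. In bulk mucosa, fewer cells of a type and less RNA per cell cannot be told apart.

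Most of the 93 entries gave little signal. Their median level was 2.40, close to the 2.42 of the other microRNA entries and below the 4.30 of the 45864 gene probe sets. A mean under 2 was found for 40 entries, 2 to 3 for 21, 3 to 5 for 23, 5 to 7 for 7 and above 7 for 2. Only hsa-mir-150 exceeded the background limit on at least 6 arrays, and it did so on all 12. That is 1.08% of the entries, against 3.97% of other microRNA entries and 8.14% of gene probe sets. The limit is strict for probes with few G or C bases. Against the brightest control with 13 or fewer such bases, 53 entries (57.0%) were above background on at least 6 arrays, as were 59.8% of the other microRNA entries and 82.6% of gene probe sets.

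**Figure D1:**
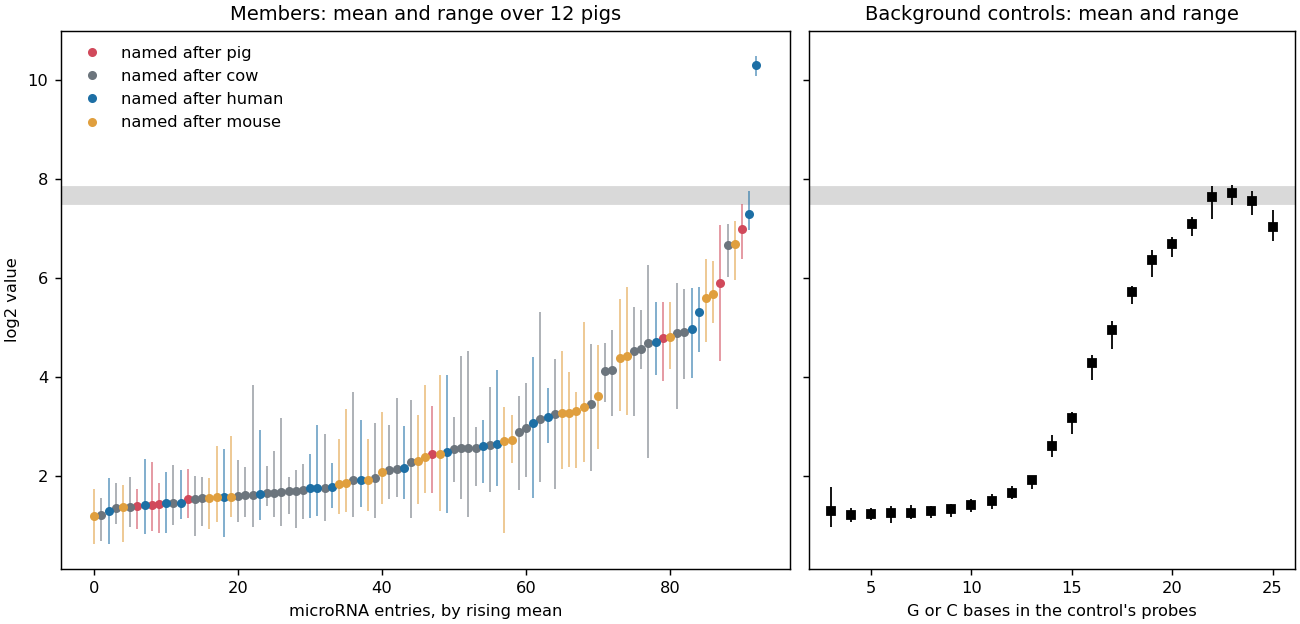
Left, mean log2 value (point) and lowest to highest value (line) over 12 pigs for each of the 93 microRNA entries, sorted by mean and coloured by the species of the name. Right, the same for the background controls by the number of G or C bases in their probes, with the mean over the 3 controls of each number; the grey band in both panels is the background limit of the 12 arrays, 7.49 to 7.84, and only hsa-mir-150 lies above it on every array.

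For the tests, the 30% of probe sets with the lowest means were left out, those under 2.67. This kept 36 of the 93 entries (38.7%), 3 named after pig, 13 after cow, 7 after human and 13 after mouse, against 46.0% of other microRNA entries and 71.0% of gene probe sets. The 57 entries below the filter include each entry of the miR-21, miR-142, miR-146, miR-17 and miR-20 families. The entries that were kept varied more between pigs than other probe sets did: the median SD over the 12 pigs was 0.56 for them, 0.42 for 812 other microRNA entries and 0.32 for 32557 gene probe sets. Among probe sets of like level the gap was largest at low levels, with a median SD of 0.69 for 14 entries and 0.33 for all probe sets between 2.67 and 4, and 0.48 for 17 entries and 0.32 for all between 4 and 6. Between 6 and 8 it was small, at 0.36 for 4 entries and 0.32 for all probe sets. The other microRNA entries were not compared at like level, so a larger SD may not be particular to these families.

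Among the epithelial families, hsa-mir-200b was the brightest, and its values in the high feed efficiency pigs ran from 7.10 over a median of 7.29 to 7.52, and in the low ones from 6.98 over 7.22 to 7.77. The groups overlapped almost fully, and the value exceeded the background limit on 1 array. The miR-200 family acts against ZEB1 and ZEB2, the repressors of the epithelial cadherin CDH1. Its relative hsa-mir-429, which shares a transcript with miR-200b in mammals, lay at 2.68 to 3.78, and bta-mir-141 at 2.38 to 6.27. The pig entry ssc-mir-192 was bright and variable, at 4.34 to 6.94 with a median of 6.27 in the high group and 4.90 to 7.07 with a median of 5.91 in the low group. High pig 1 was the lowest and low pig 4 the highest, and the groups overlapped. The entry exceeded the background limit on 0 arrays, so its level is a bound. The entries of miR-194 reached 4.43 (mmu-mir-194-1), while ssc-mir-215, which stands for a close relative of miR-192, stayed at 0.87 to 1.86. The mouse version mmu-mir-215 lay at 2.19 to 4.11 and was brighter than the pig version in all 12 pigs.

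The stromal entries were of middle or low signal. Values of mmu-mir-145, whose microRNA marks differentiated smooth muscle, were 3.76, 4.75 and 5.58 (lowest, median, highest) in high and 3.32, 4.0 and 5.02 in low feed efficiency. Values of mmu-mir-143, made from the same transcript in mammals, were 3.02, 3.55 and 5.11 against 2.29, 2.72 and 4.79. For both entries the groups overlapped. The only miR-21 entry, bta-mir-21, lay at 1.19 to 3.71, and bta-mir-29c, of a family known to target collagen messages, at 1.98 to 3.88.

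Among the immune entries, hsa-mir-150 stood far above the others and varied least. Its microRNA is abundant in mature lymphocytes, where it acts on the transcription factor MYB. Values were 10.10, 10.33 and 10.45 in high and 10.07, 10.28 and 10.49 in low feed efficiency, with an SD of 0.14 over the 12 pigs. Pigs of both groups spanned the same range. The entry mmu-mir-223, for a microRNA of the myeloid lineage, lay at 5.10 to 6.34, and mmu-mir-155, for one raised in activated lymphocytes, at 2.15 to 4.54. Both hsa-mir-146a (1.38 to 3.13) and mmu-mir-142 (1.44 to 3.30) were below the filter.

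Of the broadly expressed families, miR-30 held 19 entries and let-7 15. The pig entry ssc-mir-30a was among the brightest of all 93, with values of 6.72, 7.18 and 7.50 in high and 6.39, 6.76 and 7.48 in low feed efficiency. The groups overlapped, and 1 array exceeded the background limit. The 15 let-7 entries, named after a family that restrains growth genes such as HMGA2 and LIN28B, had means of 1.47 to 5.33, and the pig one, ssc-let-7g, lay at 1.67 to 3.42. The entry bta-mir-92b had a mean of 6.66, with an SD of 0.34. In contrast ssc-mir-17 and ssc-mir-92a-2, of a family of clusters known for a role in proliferation, lay at 0.90 to 2.30 and 1.16 to 2.15, as low as the controls of few G or C bases. The platform's annotation gives ssc-mir-17 the symbol MIR18, a neighbouring microRNA of the same cluster in mammals, so that entry's identity is uncertain.

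Versions of 1 microRNA named after different species often gave different signals. There were 23 names with more than 1 version, which make 66 pairs, and the median difference within a pair was 1.22. It exceeded 1 in 35 pairs and 2 in 24, and was under 0.5 in 21. In 31 of the 66 pairs the same version was the brighter one in all 12 pigs. These are differences of signal between probe sets whose probes were not compared here, and they do not rank amounts of RNA.

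**Figure D2:**
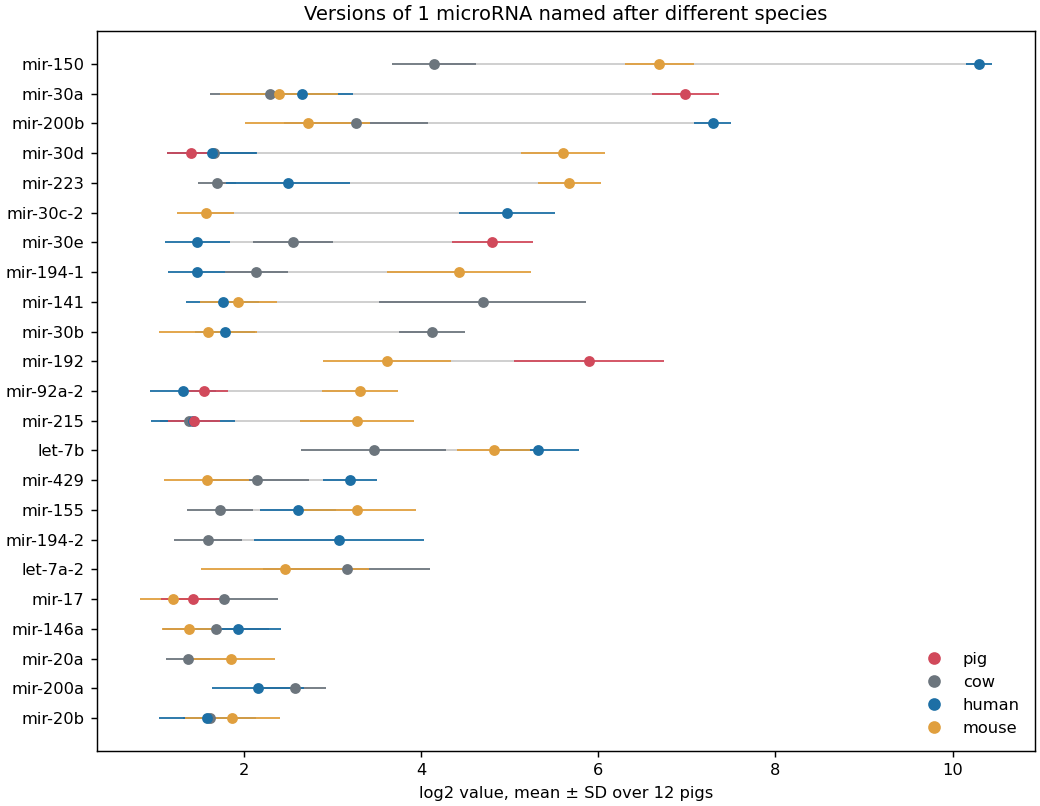
Mean log2 value ± SD over 12 pigs for each version of the 23 microRNA names that occur with more than 1 species prefix, one row for each name, sorted by the spread between its versions. Colours give the species of the name; the spread is widest for mir-150, from 4.15 to 10.30.

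The widest spread was that of mir-150. The human version had a mean of 10.30, the mouse version 6.69 and the cow version 4.15, in this order in each of the 12 pigs. For mir-200b the human version had a mean of 7.29, the cow version 3.27 and the mouse version 2.72. For mir-30a the pig version had 6.98 and the cow, mouse and human versions 2.30 to 2.65. The pig version was not as a rule the brightest: of 7 names with a pig version it was so for 3, mir-30a, mir-30e and mir-192. For mir-30d it was the dimmest, at 1.40, with the mouse version at 5.60. Over all 23 names the brightest version was human for 7, mouse for 8, cow for 5 and pig for 3.

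Correlations over the pigs between versions of 1 name were of either sign. They ran from -0.60 to 0.69 over the 66 pairs, with a median of 0.02, and the highest was between the pig and human versions of mir-215, both below the filter. In 10 pairs both versions were kept for the tests, with a median difference of 2.41 and correlations of -0.56 to 0.67. The mouse and cow versions of mir-150 gave the highest of these (0.67), and the human and mouse versions of mir-150 the lowest (-0.56). The pig and mouse versions of mir-192 had 0.50. Each r is over 12 pigs and is given as a description; the pairs share their arrays. In none of the 66 pairs were both versions above the background limit.

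The series asks which transcripts of the ileum differ with feed efficiency, and for these entries no difference passed the test. In a linear model with sex as a covariate (limma, Benjamini-Hochberg adjusted over 33405 probe sets), 0 of the 36 entries tested were called, with a smallest adjusted p of 0.999. The same model called 0 of all 33405 probe sets (0%). At an unadjusted p under 0.05 it found 2 of the 36 entries and 1059 of all probe sets (3.17%). Of the 36 entries 19 had a higher and 17 a lower mean in high feed efficiency, with a median difference of 0.01, against 0.00 over all probe sets. Their differences were larger in size than those of all probe sets (a median of 0.29 against 0.12), and so were their standard errors (0.27 against 0.17).

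The 2 entries with an unadjusted p under 0.05 were both lower in high feed efficiency. Values of bta-let-7a-1 were 3.97, 4.52 and 5.06 in high and 5.10, 5.23 and 5.78 in low feed efficiency. Every high pig lay below every low pig, and the gap between the groups was smaller than the range within either. The difference was -0.81 ± 0.22 (SE, n = 6 per group; limma unadjusted p = 0.0033, adjusted p = 0.999). It is 1 of 36 entries whose groups did not overlap, and 0.0928% of all probe sets had such groups. It was -0.51 in males and -1.10 in females, and -0.94 to -0.68 when each pig was left out in turn. The tested let-7 entries went in both directions: of the 8, 3 had a higher and 5 a lower mean in high feed efficiency, from -0.81 for this entry to 0.49 for bta-let-7a-2.

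The other entry was mmu-mir-194-1, for a microRNA of gut epithelium. Its values were 3.23, 3.76 and 4.94 in high and 3.98, 4.87 and 5.83 in low feed efficiency, and the groups overlapped. The difference was -0.98 ± 0.33 (limma adjusted p = 0.999), -1.03 in males and -0.92 in females. The second miR-194 hairpin, hsa-mir-194-2, differed by -0.74 ± 0.39, with values of 1.57 to 4.06 in high and 1.84 to 4.42 in low feed efficiency. The epithelial bta-mir-141 differed by -0.99 ± 0.57, and its 2 lowest values were in high pigs. With each pig left out in turn, hsa-mir-194-2 ran from -0.99 to -0.48, the smallest without low pig 5, and bta-mir-141 from -1.32 to -0.62, the smallest without high pig 5. Other tested entries of epithelial families went both ways. In high feed efficiency 0 had higher and 2 lower means for miR-192, and 2 and 2 for miR-200. The 1 tested entry each of miR-215 and miR-429 was higher, mmu-mir-215 by 0.42 ± 0.34 and hsa-mir-429 by 0.05 ± 0.19. Beside all these entries, 10 of 11 tested enterocyte marker genes had lower means in high feed efficiency, with a median difference of -0.44. Of these genes 0 were called, and only APOA4 had an unadjusted p under 0.05 (limma, -0.98 ± 0.37). The part of epithelial content in these differences was not tested. The last of the 5 lower entries of smallest p was mmu-mir-150 (-0.29 ± 0.19), whose human version differed by 0.04 ± 0.11.

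The 5 entries of smallest p with a higher mean in high feed efficiency were mmu-mir-223, mmu-let-7c-2, bta-mir-92a, hsa-mir-30c-1 and mmu-mir-145. The difference was 0.38 ± 0.18 for mmu-mir-223, with group values of 5.51, 5.78 and 6.34 against 5.10, 5.61 and 5.74. For mmu-let-7c-2 it was 0.29 ± 0.14 (2.31 to 3.25 against 2.27 to 2.82), near the filter limit. All 5 overlapped between the groups, and each had a limma adjusted p of 0.999. For bta-mir-92a it was 0.65 ± 0.32, of which females gave 1.19 and males 0.11. It was 0.36 ± 0.20 for hsa-mir-30c-1 and 0.64 ± 0.35 for mmu-mir-145. Leaving out 1 pig moved it to 0.42 for bta-mir-92a (without low pig 6) and to 0.23 for hsa-mir-30c-1 (without high pig 5). Beside mmu-mir-223, all 6 tested marker genes of macrophages and granulocytes, the cells known for miR-223, had lower means in high feed efficiency, with a median of -0.14 and none called.

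**Figure D3:**
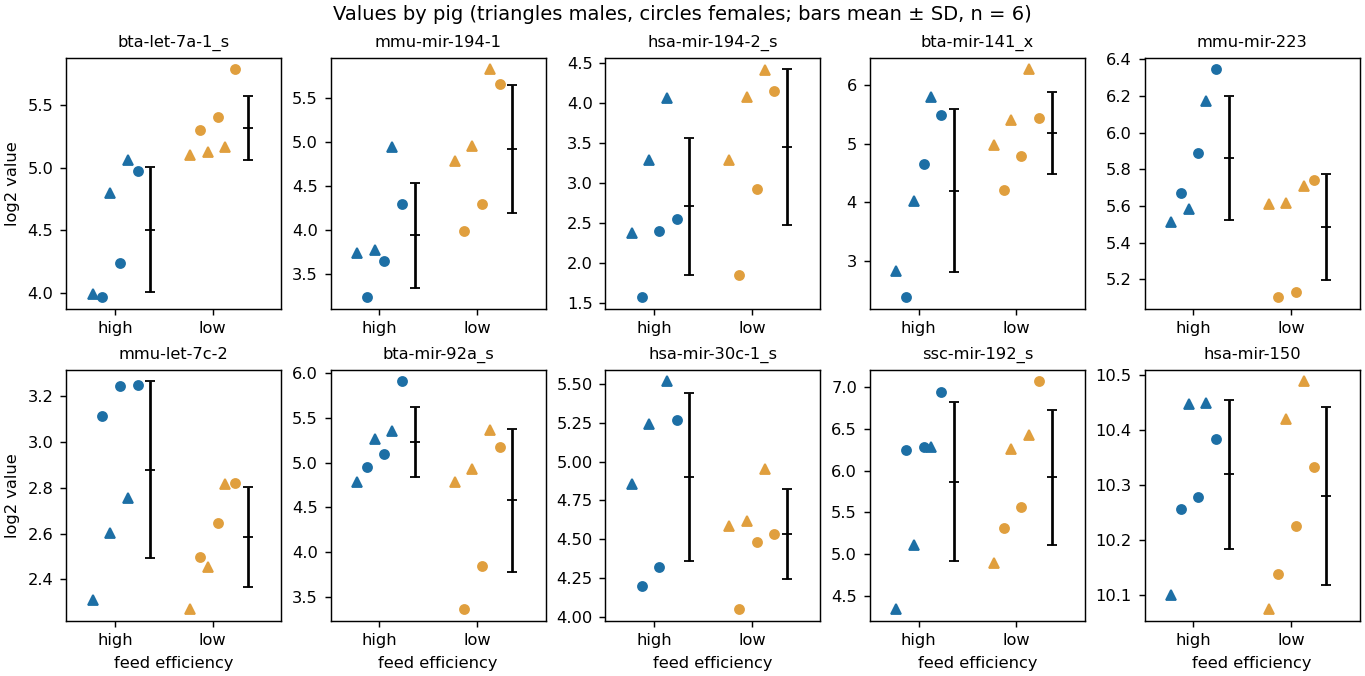
Log2 values of 10 microRNA entries in each pig by feed efficiency group, males as triangles and females as circles, with the group mean ± SD (n = 6) beside the points; each panel has its own axis, which does not start at 0. Only bta-let-7a-1 has groups that do not overlap, at 3.97 to 5.06 in high and 5.10 to 5.78 in low feed efficiency.

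**Figure D4:**
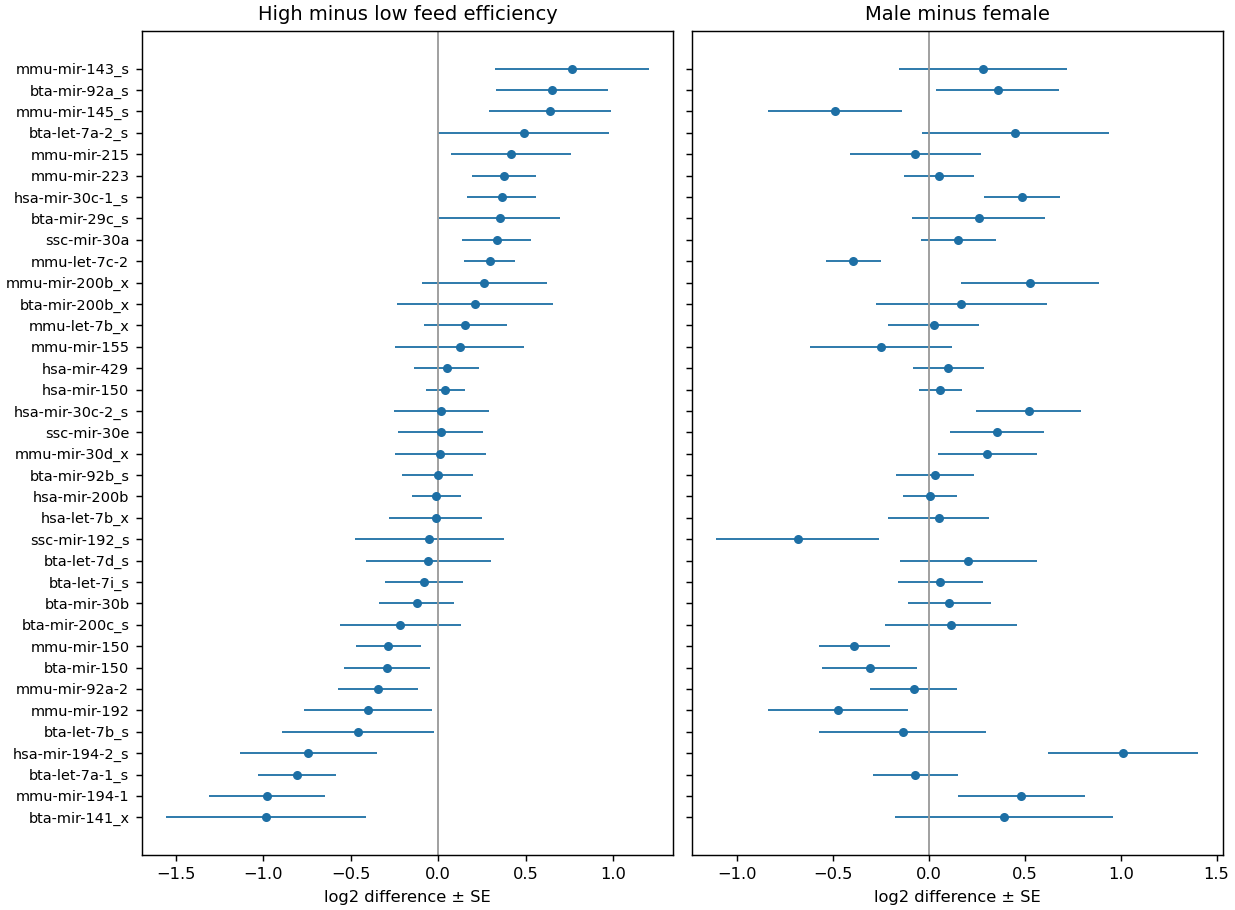
Log2 difference ± SE from the limma models for the 36 tested microRNA entries, high minus low feed efficiency on the left and male minus female on the right, sorted by the left panel. Points lie on both sides of 0, from -0.99 to 0.77 for feed efficiency and from -0.68 to 1.01 for sex, and none passed the adjusted threshold of 0.05.

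The 5 brightest entries had high minus low differences of -0.29 to 0.33. For hsa-mir-150 the high minus low difference was 0.04 ± 0.11, for hsa-mir-200b -0.01 ± 0.14, for bta-mir-92b -0.00 ± 0.20, for mmu-mir-150 -0.29 ± 0.19 and for ssc-mir-30a 0.33 ± 0.20. The pig entry ssc-mir-192 differed by -0.05 ± 0.43, with the wide spread within groups given above. The background controls themselves had means of 3.75 ± 0.08 in the high and 3.75 ± 0.05 in the low group (SD, 6 pigs each, two-sided exact permutation p = 0.945, labels permuted within sex over 400 arrangements).

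Males and females also did not differ in any entry past the threshold. With feed efficiency as a covariate limma called 0 of the 36 entries, with a smallest adjusted p of 0.178, and 11 of all 33405 probe sets (0.0329%). With each pig left out in turn the latter count ran from 5 to 417, the highest without low pig 1, and no entry was called. At an unadjusted p under 0.05 it found 3 of the 36 entries and 19% of all probe sets. No entry had groups that did not overlap, as 2.18% of all probe sets had. The mean was higher in males for 25 and lower for 11 entries, a split that turned to 14 and 22 when the range of pig identifiers was added as a term. Identifiers 301 to 310 belong to 6 males and 2 females and 317 to 324 to 4 females, so sex is partly confounded with the range. The array medians were 4.26 ± 0.04 in males and 4.22 ± 0.01 in females (SD). Their two-sided exact permutation p was 0.03, with labels permuted within feed efficiency groups. After median centring 22 entries had a higher and 14 a lower mean in males.

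The 3 entries were mmu-let-7c-2, hsa-mir-194-2 and hsa-mir-30c-1. Values of mmu-let-7c-2 were 2.27, 2.53 and 2.82 in males and 2.50, 2.97 and 3.25 in females, a difference of -0.39 ± 0.14 (limma adjusted p = 0.178). Values of hsa-mir-194-2 were 2.37, 3.68 and 4.42 in males and 1.57, 2.47 and 4.15 in females, a difference of 1.01 ± 0.39 (adjusted p = 0.194). For both, the sexes overlapped. The difference of hsa-mir-30c-1, from a family seen in many epithelia, was 0.49 ± 0.20, and that of hsa-mir-30c-2 0.52 ± 0.27. Females had the higher means in ssc-mir-192 (-0.68 ± 0.43) and mmu-mir-150 (-0.39 ± 0.19), neither of them called.

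The high minus low difference was also compared between the sexes, in a model of the 4 group means. Limma called 0 of the 36 entries and 0 of all probe sets, and at an unadjusted p under 0.05 it found 0 entries and 2.76% of all probe sets. The entries of smallest p went in both directions. For bta-let-7a-2 the high minus low difference was 1.39 in males and -0.41 in females, and for bta-mir-29c 1.01 and -0.31. For ssc-mir-30a it was 0.70 and -0.04. The opposite order was found for bta-mir-150 (-0.74 in males, 0.15 in females), mmu-mir-150 (-0.64 and 0.06) and mmu-let-7c-2 (0.04 and 0.55). With 3 pigs in each of the 4 groups, the standard errors of these contrasts had a median of 0.54 for the entries and 0.35 for all probe sets.

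MicroRNAs that lie close together are often cut from 1 transcript, and the pig gene table of assembly Sscrofa11.1, used for names and neighbours alone, holds 10 such groups among the families studied. MIR192 neighbours MIR194A, MIR215 neighbours MIR194B, MIR143 neighbours MIR145, and MIR17, MIR20A and MIR92A-1 lie together, each within 10000 bases of the next. Of the 93 entries, 62 matched the name of a microRNA in that table. The neighbours mmu-mir-143 and mmu-mir-145 had r = 0.173 over the 12 pigs (permutation adjusted p = 0.585). The lead entries of the miR-192 and miR-194 families, ssc-mir-192 and mmu-mir-194-1, had r = 0.216 (permutation adjusted p = 0.585). No name in the table matched mmu-mir-194-1, and in mouse its hairpin lies beside miR-215 and not beside miR-192, so this pair is no pair of neighbours. For hsa-mir-200b and hsa-mir-429, which are not among the 10 groups, r was 0.293 (permutation adjusted p = 0.585).

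Families known for a cell type were set against a marker gene of it, which with these pairs of families made 9 pairs, and 3 further pairs were left out because an entry or gene was below the filter. Of the 9, 1 passed the threshold: ssc-mir-192 was higher where VIL1 was, which bundles the actin of enterocyte microvilli. Both were lowest in high pig 1 (4.34 and 9.09), and the highest ssc-mir-192 value, 7.07 in low pig 4, went with a VIL1 value of 11.38. Pearson's r was 0.787 (permutation p = 0.00100, adjusted over the 9 pairs 0.00900) and Spearman's rho 0.783 (permutation p = 0.00373, adjusted 0.0336). It was 0.765 without high pig 1 and low pig 2, the pigs farthest from the median, and 0.810 after the group means and sex were taken out. Within the groups r was 0.901 in high, 0.754 in low, 0.823 in males and 0.797 in females. Without high pig 1 alone, whose array was unlike the others, r was 0.677 and the permutation adjusted p 0.221, so the pair did not pass. It passed in 13 of 14 alternatives, among them the 1 without both high pig 1 and low pig 2. An r with VIL1 of 0.787 or more was reached by 4.57% of all 33404 other probe sets. It was reached by 3 of 812 other microRNA entries and by no other of the 36 entries.

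After the values were seen, 18 more pairs of miR-192 and miR-150 entries with marker genes were added, and p-values were adjusted over all 27. The mouse version mmu-mir-192 had r = 0.691 with VIL1 (permutation adjusted p = 0.0178), a size that 7.74% of all probe sets reached. With 10 other enterocyte markers ssc-mir-192 had r of 0.423 to 0.875, and 8 of the 10 passed the threshold. The highest were FABP6 (0.875) and CDX2, a transcription factor of intestinal identity (0.872), and the lowest the bile acid transporter SLC10A2 (0.423). Without high pig 1 these 10 values ran from 0.127 to 0.848, and no p-value was computed there. The share of all probe sets reaching such an r was not computed for these 10 genes either. The enterocyte genes vary together over the pigs, so the values are not independent of each other. The level of ssc-mir-192 had r = -0.160 with the mean of the background controls and -0.513 with the median of the array over the 12 pigs. The part of array quality in the relation was not tested.

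**Figure D5:**
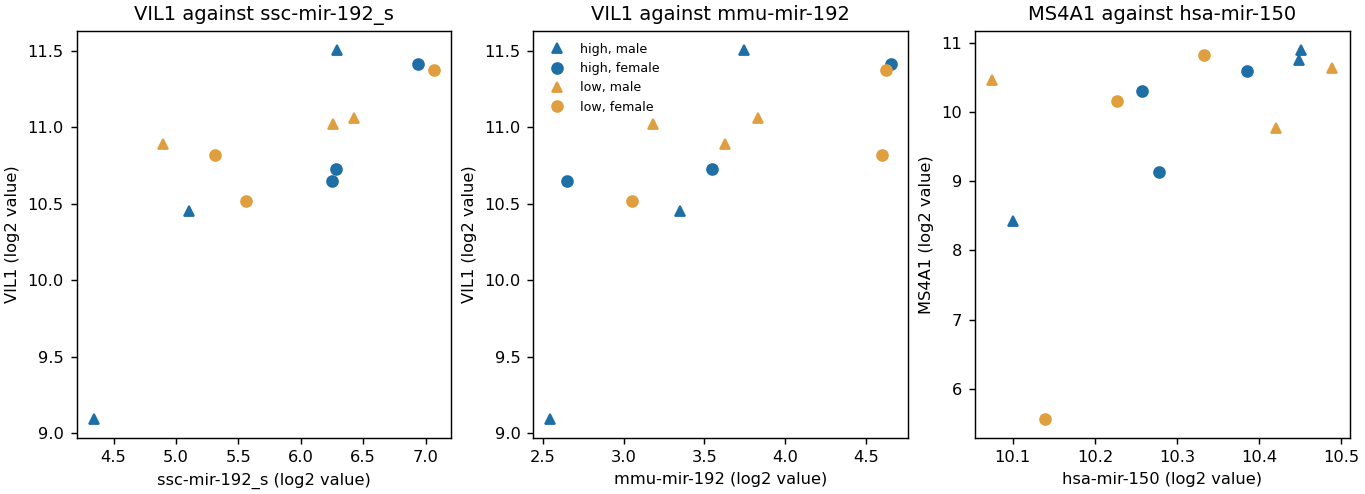
Log2 values of a marker gene against those of a microRNA entry in each of 12 pigs, VIL1 against ssc-mir-192 and mmu-mir-192 and the B cell gene MS4A1 against hsa-mir-150; colour gives the feed efficiency group and shape the sex. VIL1 rises with both miR-192 entries (r = 0.787 and 0.691), with high pig 1 at the lower left, and in the third panel low pig 4 lies apart with MS4A1 at 5.56.

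For hsa-mir-150 and MS4A1, the B cell surface protein CD20, r was 0.554 (permutation p = 0.0448, adjusted 0.202), rho 0.643, and 10.9% of all probe sets had an r of this size or more. Low pig 4 had an MS4A1 value of 5.56, against 8.43 to 10.90 in the other pigs. Without low pig 1, or without high pig 3 and low pig 1, the pigs farthest from the median of hsa-mir-150, r was 0.722 (permutation adjusted p = 0.0261) and 0.714 (permutation adjusted p = 0.0447), so this pair passed the threshold there. With 5 other B cell markers hsa-mir-150 had r of 0.469 to 0.586, and 0 passed the threshold when adjusted over the 27 pairs. For the other versions r with MS4A1 was -0.411 for mmu-mir-150 and -0.568 for bta-mir-150. Neither passed the threshold (permutation adjusted p over the 27 pairs of 0.259 and 0.122). Without the 2 pigs farthest from the median of each entry, these were -0.286 and -0.0486. The level of hsa-mir-150 had r = 0.638 with the mean of the background controls, and its whole range over the pigs was 10.07 to 10.49. The other 4 pairs of the 9 had r of -0.371 to 0.270, with permutation adjusted p of 0.585 each. They were hsa-mir-200b with CDH1, mmu-mir-143 and mmu-mir-145 with the smooth muscle myosin MYH11, and mmu-mir-155 with MS4A1. MYH11 had a mean of 3.79 and exceeded the background limit on 0 arrays, so its level is a bound. Its pairs therefore cannot decide whether these entries go with smooth muscle, and brighter smooth muscle genes such as ACTG2 were not set against them.

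Genes that make or use microRNAs showed no difference past the threshold either. Of 25 such genes 20 were on the array with a symbol and 19 were tested. DROSHA itself, with a mean of 2.18, was below the filter and was not tested. None was called for feed efficiency and none had an unadjusted p under 0.05 (limma); 13 had higher and 6 lower means in high feed efficiency, with a median of 0.08. The 2 of smallest p were TNRC6A, a scaffold of the silencing complex (0.29 ± 0.14), and DGCR8, the partner of DROSHA (0.22 ± 0.12), both with a limma adjusted p of 0.999. In the sex comparison 8 of the 19 had an unadjusted p under 0.05 (limma), a larger share than the 19% of all probe sets, and 0 were called. DDX5, a helicase of the DROSHA complex, differed by 1.14 ± 0.24 (limma adjusted p = 0.0905), with means of 10.35 in males and 9.21 in females, and TNRC6B by 0.89 ± 0.23 (adjusted p = 0.107).

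Textbook targets of these microRNAs were measured as well, 24 of 28. For feed efficiency 0 were called and 0 had an unadjusted p under 0.05 (limma), with 7 higher and 17 lower means in high feed efficiency and a median of -0.09, against 0.00 over all probe sets. The cell cycle inhibitor CDKN1A, a target of the miR-17 family, differed by -0.59 ± 0.28, and HMGA2, the textbook let-7 target, by -0.25 ± 0.13. Both had a limma adjusted p of 0.999. Between the sexes 5 of the 24 had an unadjusted p under 0.05, a share near the 19% of all probe sets, and 0 were called. Of the genes that host microRNAs 4 were tested, among them NFYC, which hosts miR-30 hairpins in mammals, and MCM7, which hosts relatives of miR-17 and miR-92, and their feed efficiency differences were between -0.01 and 0.02.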

How the data were processed

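Ileal mucosa RNA of 12 pigs was measured on 1-colour Affymetrix Snowball arrays. Per the labels' protocols, Qiazol extraction, a DNase step and column purification gave total RNA, which was transcribed and labelled with whole-transcript kits. The submitters' processing notes name GCOS 1.1.1. The deposited table holds log2 values, a scale read from the values. How background correction, summary and normalization were done is not given in the sources used here, and the columns have nearly the same distribution, so no further normalization was applied. No scan date or slide is given, so such a batch was not tested.

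Groups and sex came from the labels. The 123 control probe sets and the dimmest 30% of probe sets (mean under 2.67) were left out of the tests. Each of the 33405 probe sets kept was fitted with limma 3.58.1 in R 4.3.3 (lmFit, eBayes), with feed efficiency and sex as terms, and the 4 group means gave the difference between the sexes. P-values were Benjamini-Hochberg adjusted, with a threshold of 0.05. The code was tested on simulated data. Correlations used two-sided permutation tests with 100000 resamples (scipy 1.17.1), and tests of array measures the 400 arrangements of labels within sex or group. A gene with several probe sets was represented by the one with the highest mean. The precision is limited by the number of arrays, 6 in each group.

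Values are given for the lead entry of each family (pig before other species, then the highest mean), the 5 brightest entries, and the 5 entries per direction of smallest p for feed efficiency and 3 per direction for each of the other comparisons. Up to 4 genes of a list could be named by smallest p, and markers of the tissue, host genes and the genes of the correlations were named beside them. The entries, gene lists, tests and naming rule were chosen with earlier results of these data known. Alternatives were other filters, quantile normalization, median centring, array weights, a trended and robust variance, a threshold of 0.1, other terms, males or females alone, each pig left out in turn and other background limits. Other limits on the background controls, and 18 of the correlations, were added after the values were seen. The _s and _x endings of 32 and 18 entry names, which by the maker's convention mark probes shared between transcripts, are left out of the names in the text. No sequence of a probe or microRNA was used.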

Additional observations from a re-analysis of the deposited data

Results flagged for a closer look

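In 2 of the 60 groups of 6 pigs checked, taken from 30 named entries, 1 pig lay far from the others, where chance gives about 1 group in 20. For bta-mir-21 the value of high feed efficiency pig 4 was 3.71, and the next highest of that group was 1.75. The entry had a mean of 1.93, at the level of background controls with 13 G or C bases (1.92). For mmu-mir-143 the value of low feed efficiency pig 2 was 4.79, and the next highest of that group was 3.20.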

How the results depend on the processing

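No entry was called in any of the 3 comparisons under the alternatives run (23 for feed efficiency, 21 for sex, 19 for the difference between the sexes). Over all probe sets, feed efficiency gave 0 calls except 1 in females alone, and the difference between the sexes 0 to 1 with each pig left out. The 11 sex calls became 580 at a threshold of 0.1, 7 without a filter, 0 above background, 7 with a trended and robust variance and 6 with the identifier range as a term, and 5 to 417 with each pig left out; the 417 came without low pig 1. The 1 entry above background became 40 at the filter limit, 53 against controls with 13 or fewer G or C bases and 41 against the median control. Of 9 correlations 1 passed, and 2 without the 2 pigs farthest from the median; leaving out each pig gave 0 to 2, with 0 without high pig 1 and 2 without low pig 1. Feed efficiency differences near 0 changed sign: bta-mir-92b was 0.19 with array weights and 0.34 in females alone (-0.14 to 0.14 with each pig left out), hsa-mir-200b 0.00075 after quantile normalization and 0.15 in females alone (-0.082 to 0.0914), hsa-mir-150 -0.013 to 0.0951, and in females alone mmu-mir-150 was 0.0644 and ssc-mir-30a -0.0357. Without the 2 farthest pigs r was 0.161 for mmu-mir-143 with MYH11 and 0.445 for mmu-mir-155 with MS4A1; with each pig left out the latter ran from -0.483 to 0.365 and mmu-mir-143 with mmu-mir-145 from -0.193 to 0.507. The cause of these changes was not tested. No paired analysis was possible because the labels give no replicate numbers; they were given in accession order. Pairs or family means over entries above background were not run, since only hsa-mir-150 was above it.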
